A study of Mus musculus with 2 samples.

Results

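The genes described here are 10 members of the BCL2 family, chosen by name, of the 32285 genes counted in thymic cells of the regulatory T (Treg) lineage. They are 5 genes that favour survival (Bcl2, Bcl2l1, Bcl2a1b, Bcl2a1d and Mcl1) and 5 that favour death (Bcl2l11, Bbc3, Pmaip1, Bax and Bak1). The cells came from 2 C57BL/6 mice. One mouse lacked Lta, the gene for the cytokine lymphotoxin alpha, and carried the Foxp3eGFP reporter (Foxp3eGFPxLta-/-, called Lta-/- here). The other carried the Foxp3eGFP reporter alone (called Foxp3eGFP here). The reporter, shared by both mice, makes cells that express Foxp3, the Treg transcription factor, fluoresce green. Live CD3e+ CD4+ thymocytes without CD8 or CCR6 were sorted if they carried CD25 (the IL-2 receptor alpha chain, product of Il2ra), eGFP or both. The 2 sorts were marked with hashtag antibodies, pooled and run in 1 droplet capture that counts the 3' ends of transcripts as unique molecular identifiers (UMIs).

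BCL2 family proteins decide whether the mitochondrial outer membrane stays closed. Bax and Bak form the pores that start apoptosis, the pro-survival proteins hold them and the BH3-only proteins in check, and the BH3-only proteins Bim (Bcl2l11), Puma (Bbc3) and Noxa (Pmaip1) release that hold. In the thymus Bim is a main mediator of the death of cells whose receptor binds self antigen strongly, and interleukin 2 and T cell receptor signals through NF-kB are known to raise pro-survival members in developing Treg cells. Treg precursors that express CD25 before Foxp3, or Foxp3 before CD25, are known in mice, so the family was read across cells by the UMIs of those 2 genes.

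Promoter sequences are shown for 4 members, because the results turn on them and their promoters carry a feature a reader can see. Each is 300 bases, from 250 before to 50 after an annotated start, written 5' to 3' on the gene's strand, from RefSeq on GRCm38.p6. The first pair shows how alike the Bcl2a1 copies are. Capitals mark the longest run they share, 84 bases, and 247 of 250 aligned bases (98.8%) were identical. How alike their 3' ends are was not read here. If reads match both copies, the counting may divide them or set them aside, so the copies are also given as a sum. In the Bcl2l1 sequence, at the second of its 3 listed starts, capitals mark a match to the NF-kB consensus motif. In the Bcl2l11 sequence, at the first of its 2 starts, they mark the FOXO motif GTAAACA, read on both strands.
Bcl2a1b: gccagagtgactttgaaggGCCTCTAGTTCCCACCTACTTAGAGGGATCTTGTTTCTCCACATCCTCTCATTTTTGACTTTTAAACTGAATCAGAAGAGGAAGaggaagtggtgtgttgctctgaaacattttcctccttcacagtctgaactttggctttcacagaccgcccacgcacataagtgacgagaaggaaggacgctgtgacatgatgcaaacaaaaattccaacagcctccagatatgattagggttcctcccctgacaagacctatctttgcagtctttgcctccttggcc
Bcl2a1d: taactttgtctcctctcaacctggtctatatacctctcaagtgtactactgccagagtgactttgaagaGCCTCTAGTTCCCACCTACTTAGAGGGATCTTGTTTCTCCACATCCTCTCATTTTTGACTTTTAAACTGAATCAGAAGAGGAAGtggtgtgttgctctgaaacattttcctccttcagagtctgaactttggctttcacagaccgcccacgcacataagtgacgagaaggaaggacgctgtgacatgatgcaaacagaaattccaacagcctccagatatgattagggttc
Bcl2l1: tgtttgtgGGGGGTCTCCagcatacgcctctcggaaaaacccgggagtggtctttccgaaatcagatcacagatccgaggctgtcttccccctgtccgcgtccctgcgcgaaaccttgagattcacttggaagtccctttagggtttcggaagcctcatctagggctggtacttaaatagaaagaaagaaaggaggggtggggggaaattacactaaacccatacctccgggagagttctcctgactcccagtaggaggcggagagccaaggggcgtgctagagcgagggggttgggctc
Bcl2l11: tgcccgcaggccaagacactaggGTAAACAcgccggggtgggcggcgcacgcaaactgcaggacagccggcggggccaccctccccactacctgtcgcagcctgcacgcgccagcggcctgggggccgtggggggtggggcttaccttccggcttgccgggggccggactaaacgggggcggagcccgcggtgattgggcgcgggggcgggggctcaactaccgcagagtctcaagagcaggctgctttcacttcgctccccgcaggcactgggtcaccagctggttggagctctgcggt
The windows are chr9:89199023-89199322 (plus strand) for Bcl2a1b, chr9:88731801-88732100 (minus) for Bcl2a1d, chr2:152830668-152830967 (minus) for Bcl2l1 and chr2:128125788-128126087 (plus) for Bcl2l11. The NF-kB consensus occurs in 4.51% of all 32851 promoter windows in the table and the FOXO motif in 3.65%. Among 14 windows of the 9 members looked up, each motif occurred in 2, in Bbc3 besides the genes shown, and the motifs did not overlap in the sequences printed. A match is a description of letters, and 3' counts cannot tell which start a transcript used.

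After a filter on quality, 4638 of 4798 barcodes were kept, with 31129765 UMIs and a median of 5555 per cell. By hashtag, 2244 cells belonged to the Lta-/- mouse and 2209 to the Foxp3eGFP mouse. Another 185 cells (3.99%) carried both hashtags and entered no comparison of genotypes. The sort markers were as the gate implies for Cd3e (95.2% of cells with a UMI), Cd8a (2.72%) and Ccr6 (2.5%), while Cd4 had a UMI in 60.1% and Cd8b1 in 14.8%. Lta had 72 UMIs in cells labelled Lta-/- and 509 in cells labelled Foxp3eGFP. With 1 mouse per genotype and 1 capture, there is no replicate error and no test, and the 95% intervals cover counting error only. Levels are UMIs per 1000000 UMIs (CPM) summed over the cells of a class, and they are not divided by transcript length, so they are compared between classes and never between genes. A gene counted as measured with at least 50 UMIs in the compared classes together, and as past the threshold at a ratio of at least 1.5. Pmaip1, with 34 UMIs in all, never reached 50, so 9 members could be compared.

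Among the pro-survival genes, Bcl2 (chr1:106538176-106714290 on GRCm38), the founding member, had 10386 UMIs in all cells, or 334 CPM (327 to 340), and 66.7% of cells had at least 1 UMI. Mcl1 (chr3:95656944-95663179), a short-lived protein that T cells need at every stage, had 10106 UMIs and a UMI in 81.8% of cells. Both were spread widely, as the 1% of cells with the most UMIs of the gene held 7.21% of all Bcl2 UMIs and 4.88% of all Mcl1 UMIs. Bcl2l1 (chr2:152758732-152833803), which encodes Bcl-xL, had 725 UMIs and was seen in 11.1% of cells. The Bcl2a1 copies, which encode A1, a target of NF-kB, were Bcl2a1b (chr9:89199273-89207838) with 3324 UMIs in 29.4% of cells and Bcl2a1d (chr9:88723288-88731850) with 1489 UMIs in 16.8%. Bcl2l1 and Bcl2a1d were concentrated, with 23.9% and 23.6% of their UMIs in the top 1% of cells, a share that is larger for genes with few UMIs in any case. The pair summed to 4813 UMIs, in 35.8% of cells. The other copies were nearly unseen, with 10 UMIs of Bcl2a1a and 5 of Bcl2a1c.

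Of the pro-death genes, Bcl2l11 (chr2:128126038-128162547) had 2795 UMIs and was seen in 23.7% of cells, yet 20.6% of its UMIs lay in 1% of the cells and a single cell held up to 24. Bax (chr7:45461695-45466903) had 4194 UMIs in 52.0% of cells, and Bak1 (chr17:27019812-27028627) had 1028 UMIs in 18.7%. Both pore formers were spread more evenly than Bcl2l11, with 8.8% of Bax and 12.1% of Bak1 UMIs in the top 1%. Bbc3 (chr7:16308398-16318334), a target of p53 and of FOXO factors, had 387 UMIs in 7.05% of cells. Pmaip1 was seen in 0.712% of cells. No cell type in the capture is known to lack these genes, so the share of cells that free RNA alone would give could not be measured.

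The classes by transcript were 524 cells with a UMI of Foxp3 only, 615 of Il2ra only, 426 of both and 3073 of neither. Every cell had been sorted for CD25 or eGFP protein, so a cell with neither transcript is 1 in which no UMI was captured, not a cell known to lack them. The class with neither also differed in state. By the panels described below it held 675 of 779 resting-high and 558 of 700 immature-high cells. Foxp3 had a UMI in 1.13% of cells of cluster 2 (median 5545 UMIs), described below, and in 52.1% of cluster 5 (median 5193.5). Why cells had neither transcript was not tested. Il2ra only cells had the highest level of every inducible pro-survival member and of Bcl2l11, and cells with both transcripts had the highest Bcl2. Foxp3 only cells had the lowest Bcl2l1 and Bcl2a1d levels of the 4 classes, and their Bcl2a1b (73.6 CPM) was close to that of cells with neither (80.6 CPM, log2 ratio -0.13). Bax and Bak1 stayed within 1.5-fold between each transcript class and the cells with neither.

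**Figure D1:**
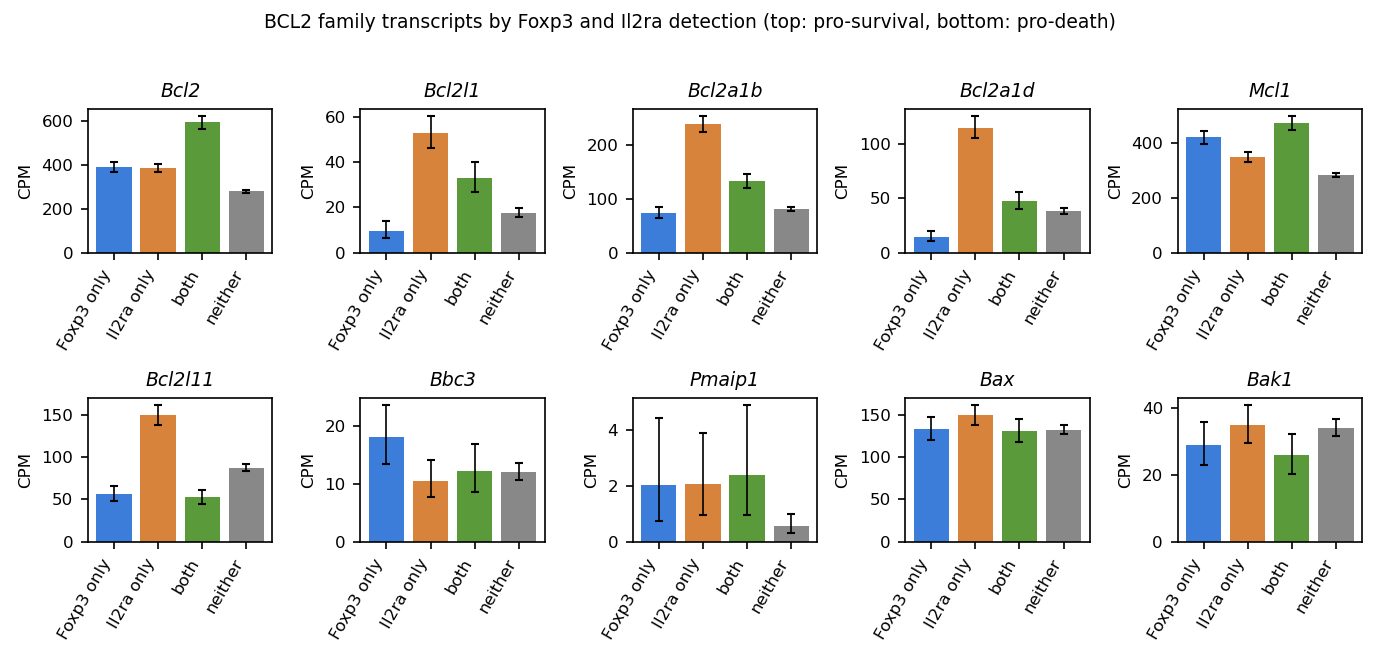
Level of each member in CPM (UMIs per 1000000 UMIs, linear axes from 0, a scale of its own per gene) in cells with a UMI of Foxp3 only, Il2ra only, both or neither, with exact Poisson 95% intervals for counting error. Bcl2a1d stands at 115 CPM in Il2ra only cells, against 14.6 in Foxp3 only cells, 47.6 in cells with both and 38.5 in cells with neither.

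In Il2ra only cells over cells with neither transcript, 4 of 9 measured members were past 1.5-fold and all 4 were higher, where 14.5% of 10516 measured genes were past it in either direction and 6.14% were higher. Bcl2l1 had 231 UMIs and 53.01 CPM in Il2ra only cells, against 369 UMIs and 17.7 CPM in cells with neither, a log2 ratio of 1.59 (1.34 to 1.83). Bcl2a1b reached 238 CPM in Il2ra only cells and 80.6 CPM in cells with neither, a log2 ratio of 1.56 (1.45 to 1.67). Bcl2a1d was at 115 against 38.5 CPM, a log2 ratio of 1.58 (1.41 to 1.74). The intervals of these 3 inducible pro-survival ratios overlapped. Bcl2l11, the gene for Bim, was higher as well, at 149 CPM in Il2ra only cells and 87.3 CPM in cells with neither, a log2 ratio of 0.77 (0.64 to 0.90). Bcl2 (log2 ratio 0.47), Mcl1 (0.30), Bax (0.17), Bak1 (0.03) and Bbc3 (-0.19) were within the threshold. The median over the 9 members was 0.47 and over all measured genes -0.03.

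Foxp3 only cells showed another order. Of 9 measured members 3 were past 1.5-fold below cells with neither transcript and 0 above, where 20.5% of 10414 genes were past it and 13.3% were lower. Bcl2a1d had 43 UMIs and 14.6 CPM in Foxp3 only cells, against 805 UMIs and 38.5 CPM, a log2 ratio of -1.40 (-1.87 to -0.95). The sum of Bcl2a1b and Bcl2a1d was inside the threshold, at 88.2 against 119 CPM, a log2 ratio of -0.43 (-0.62 to -0.25). The count of 3 therefore rests on reading Bcl2a1d apart from the other copy, whose reads may be divided with it. Bcl2l1 had 28 UMIs and 9.53 CPM, against 17.7 CPM in cells with neither, a log2 ratio of -0.89 (-1.50 to -0.33). The interval of Bcl2l1 is wide, and its log2 ratio was -0.50 with every cell thinned to 3000 UMIs and -0.45 in Lta-/- cells alone, both inside the threshold. Bcl2l11 stood at 56.2 CPM in Foxp3 only cells and 87.3 CPM in cells with neither, a log2 ratio of -0.64 (-0.88 to -0.41), which was -0.56 in Foxp3eGFP cells alone. Mcl1 (421 against 285 CPM, log2 ratio 0.57), Bcl2 (389 against 279 CPM, 0.48) and Bbc3 (18.0 against 12.1 CPM, 0.58) were higher without reaching 1.5-fold. Bcl2a1b (-0.13), Bax (0.01) and Bak1 (-0.24) were also inside it. With at least 2 UMIs asked for a class, Bcl2 at 0.68, Mcl1 at 0.68 and Bbc3 at 1.01 passed it and 6 members were past the threshold. The median over the members was -0.13 at 1 UMI, and -0.05 over all genes.

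In cells with both transcripts, 4 of 9 members were higher and 1 was lower past 1.5-fold than in cells with neither, where 20.8% of 10413 genes were past it, 7.13% higher and 13.6% lower. Bcl2 had 1741 UMIs and 592 CPM in cells with both, against 5820 UMIs and 279 CPM in cells with neither, a log2 ratio of 1.09 (1.01 to 1.16). Mcl1 was at 473 against 285 CPM, a log2 ratio of 0.73 (0.65 to 0.82), which became 0.51 after thinning. Bcl2l1 reached 33.0 CPM in cells with both and 17.7 CPM in cells with neither (log2 ratio 0.90, 0.56 to 1.23), and Bcl2a1b 132 and 80.6 CPM (0.71, 0.55 to 0.87). Bcl2a1d was within the threshold, at 47.6 CPM in cells with both and 38.5 CPM in cells with neither (0.30, 0.04 to 0.57), as were Bbc3 (0.02), Bax (-0.02) and Bak1 (-0.41). The median over the members was 0.30 and over all genes -0.08. Bcl2l11 went the other way, at 52.3 CPM in cells with both and 87.3 CPM in cells with neither, a log2 ratio of -0.74 (-0.99 to -0.50), or -0.55 in Foxp3eGFP cells alone. Markers of other cells also differed between classes. The summed level of B or plasma cell markers, all 6 detected, was 11.5 CPM in Il2ra only cells, 10.2 in Foxp3 only cells, 13.3 in cells with both and 287 in cells with neither. Double-positive thymocyte markers, all 5 detected, stood at 159, 30.6, 44.5 and 78.6 CPM in the same classes. Without the 115 cells that had at least 5 UMIs of other-cell markers, Bcl2a1d in Il2ra only cells gave a log2 ratio of 1.65, Bcl2l11 in cells with both gave -0.74, and Bbc3 in Foxp3 only cells gave 0.59, just past the threshold. That count, here and below, used B or plasma, myeloid, epithelial and NK or innate markers. Double-positive thymocyte markers were not part of it, so cells that carried them stayed in.

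Set against each other, Il2ra only cells over Foxp3 only cells had 4 members higher and 1 lower, where 19.4% of 8468 genes were past 1.5-fold, 12.0% higher and 7.43% lower. The lower one was Bbc3, with 46 UMIs and 10.6 CPM in Il2ra only cells, against 53 UMIs and 18.0 CPM in Foxp3 only cells, a log2 ratio of -0.77. The higher ones were Bcl2a1d (2.97), Bcl2l1 (2.48), Bcl2a1b (1.69) and Bcl2l11 (1.41), and Bcl2 (-0.01), Mcl1 (-0.26), Bax (0.17) and Bak1 (0.27) were inside the threshold. The sum of Bcl2a1b and Bcl2a1d gave a log2 ratio of 1.57 in Il2ra only cells, -0.43 in Foxp3 only cells and 0.59 in cells with both, each over cells with neither. Pmaip1 had 9 UMIs in Il2ra only cells, 6 in Foxp3 only cells, 7 in cells with both and 12 in cells with neither. Detection after thinning showed a like order. Bcl2a1d was seen in 21.1% of Il2ra only cells, 3.34% of Foxp3 only cells, 8.17% of cells with both and 8.67% of cells with neither. Bcl2l11 was seen in 19.9% of Il2ra only cells, 12.7% of Foxp3 only cells, 12.0% of cells with both and 16.6% of cells with neither, so its share varied less than its level. Bcl2 was seen in 77.2% of cells with both transcripts, the highest share of the 4 classes.

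The number of Il2ra UMIs per cell separated the members further. Bcl2 stood at 292 CPM in the 3597 cells without an Il2ra UMI, 403 with 1 UMI (475 cells), 439 with 2 (217 cells) and 562 with 3 or more (349 cells). Its level was higher at each step. Bcl2l1, in contrast, stood at 16.7, 43.3, 40.2 and 49.5 CPM over the same steps, and Bcl2a1d at 35.6, 95.7, 85.6 and 80.03 CPM. Most of their difference lay between no UMI and 1 UMI. Bcl2l11 had no order over the series, at 83.5, 126, 74.0 and 113 CPM. These steps mixed cells with and without a Foxp3 UMI. Median depth also differed, at 5445 UMIs in cells without an Il2ra UMI and 6514 in those with 3 or more. The part of either in the order was not tested. Over Foxp3 UMIs, Bcl2 stood at 297 CPM in 3688 cells with none, 445 with 1 (541 cells) and 545 with 2 or more (409 cells), and Mcl1 at 296, 416 and 485 CPM. Bcl2l11 ran downward over the same steps, at 98.1, 59.2 and 48.3 CPM.

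Cell states were read with 9 panels of marker genes, none of them a member. A cell was high for a panel when, after thinning to 3000 UMIs, it held at least the number of panel UMIs that no more than 20% of the 4325 cells deep enough reached. A cell could be high for several panels, and a panel is a range on a score and not a cell type. The agonist panel (Tnfrsf9, Nfkbid, Gadd45b and Lad1, genes of strong receptor signal and NF-kB) was high at 2 UMIs in 766 cells. Of those cells 255 sat exactly at 2 UMIs, and 645 others had 1.

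Agonist-high cells carried the inducible pro-survival genes and Bim together, with less Bcl2. Of 9 members 4 were higher and 1 was lower past 1.5-fold than in the rest, where 24.1% of 10781 genes were past it, 11.3% higher and 12.8% lower. Bcl2l11 had 1373 UMIs and 251 CPM in agonist-high cells, against 1378 UMIs and 55.1 CPM in the rest, a log2 ratio of 2.19 (2.08 to 2.29). Bcl2a1d stood at 148 CPM in agonist-high cells and 26.8 CPM in the rest (log2 ratio 2.46, 2.31 to 2.61), and Bcl2a1b at 293 and 66.9 CPM (2.13). Bcl2l1 was at 60.7 against 15.3 CPM, a log2 ratio of 1.99. Bcl2 was the member on the other side, at 187 CPM in agonist-high cells and 364 CPM in the rest, a log2 ratio of -0.96 (-1.06 to -0.87). The median over the members was 0.32 and over all genes 0.03. Mcl1 (-0.14), Bbc3 (-0.09), Bax (0.32) and Bak1 (32.2 against 33.4 CPM) were within the threshold. The 2 Bcl2a1 copies moved alike, but their reads may be divided between them, so they are not separate evidence. Other-cell markers were lower in the agonist-high cells, at 6.03 against 243 CPM for B or plasma, 29.8 against 64.4 for myeloid and 46.6 against 90.7 CPM for double-positive thymocyte markers.

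**Figure D2:**
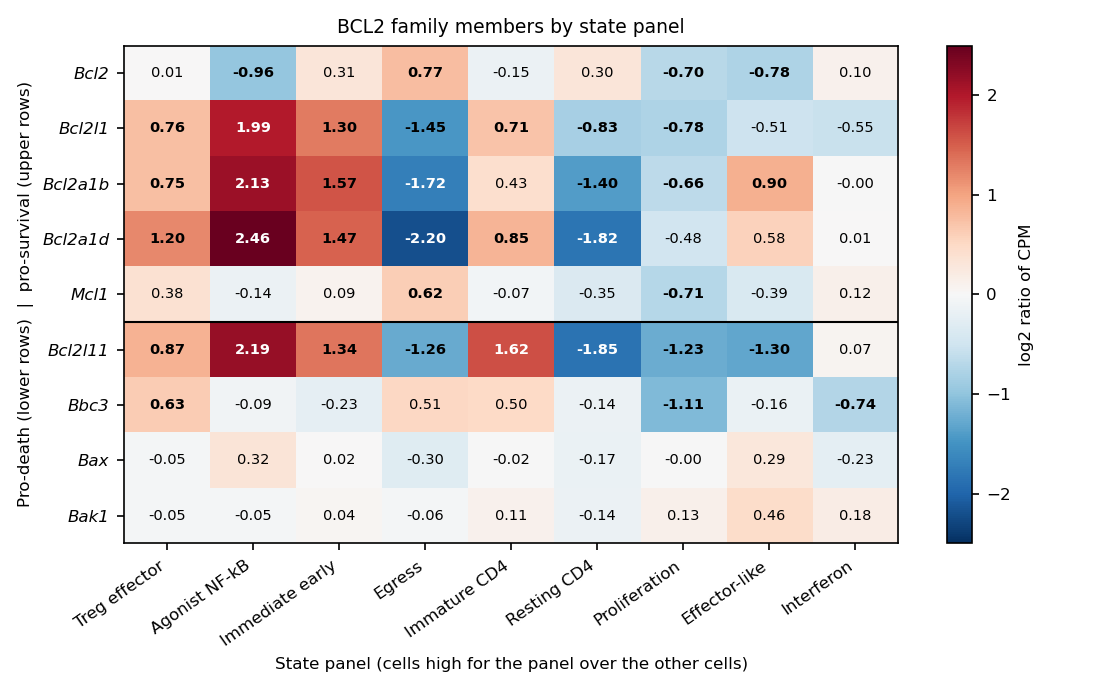
Log2 ratio of CPM for 9 members (rows) in cells high for each of 9 state panels over the rest (columns), on a diverging colour scale, with values past 1.5-fold in bold. Pmaip1 had too few UMIs and is left out. Bcl2l11 and the Bcl2a1 copies are high in the agonist and immediate early columns (Bcl2l11 2.19 and 1.34) and low in the egress and resting columns (-1.26 and -1.85), while Bax and Bak1 are inside the threshold in all 9.

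The immediate early panel (Egr1, Egr2, Egr3, Nr4a1 and Nr4a3, genes switched on within minutes of a receptor signal) gave the same 4 members higher and 0 lower, where 8.06% of genes were past 1.5-fold and 3.81% were higher. Bcl2l11 stood at 177 CPM in the 842 high cells and 69.9 CPM in the rest, a log2 ratio of 1.34. Bcl2l1 (1.30), Bcl2a1b (1.57) and Bcl2a1d (1.47) were close to it, and Bcl2 was at 0.31, Mcl1 at 0.09, Bbc3 at -0.23, Bax at 0.02 and Bak1 at 0.04. Unlike the agonist panel, then, this one had no loss of Bcl2. The panels shared 274 cells. In cells high for the Treg effector panel (Ctla4, Lrrc32, Gpr83, Nrp1 and Ikzf2), 5 of 9 members were higher, where 16.6% of genes were past the threshold and 8.83% were higher. They were Bcl2a1d (1.20), Bcl2l1 (0.76), Bcl2a1b (0.75), Bcl2l11 at 146 against 79.9 CPM (log2 ratio 0.87) and Bbc3 at 17.6 against 11.3 CPM (0.63, 0.27 to 0.99). Bcl2 (0.01), Mcl1 (0.38), Bax (-0.05) and Bak1 (-0.05) were inside the threshold, and 312 of the 750 cells were agonist-high too.

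Mature and egressing cells showed the opposite arrangement. The egress panel (genes of thymic exit, S1pr1 and Klf2 among them) had 2 members higher and 4 lower, where 24.4% of genes were past 1.5-fold, 7.37% higher and 17.0% lower. Bcl2 stood at 526 CPM in egress-high cells and 308 CPM in the rest (log2 ratio 0.77), and Mcl1 at 467 and 303 CPM (0.62). Bcl2a1d stood at 11.6 CPM in egress-high cells and 53.2 CPM in the rest (log2 ratio -2.20), and Bcl2l11 at 40.4 and 96.7 CPM (-1.26). Bcl2a1b (-1.72) and Bcl2l1 (-1.45) were lower as well, and Bbc3 (0.51), Bax (-0.30) and Bak1 (-0.06) were inside the threshold. Resting cells (Il7r, Igfbp4 and Dapl1) had 4 members lower and 0 higher, where 14.2% of genes were past the threshold and 8.42% were lower. Among them Bcl2l11 was at 29.4 CPM in resting-high cells and 106 CPM in the rest, a log2 ratio of -1.85, and Bcl2a1d (-1.82), Bcl2a1b (-1.40) and Bcl2l1 (-0.83) were the others. Bcl2 (0.30), Mcl1 (-0.35), Bax (-0.17), Bak1 (-0.14) and Bbc3 (-0.14) were inside the threshold.

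Immature cells (Ccr9, Sox4 and Cd24a) had 3 of 9 members higher, where 15.6% of genes were past the threshold and 8.05% were higher, and the set was led by Bcl2l11. It stood at 210 CPM in immature-high cells and 68.5 CPM in the rest, a log2 ratio of 1.62, with Bcl2a1d at 0.85 and Bcl2l1 at 0.71. The summed Bcl2a1 copies gave 0.57, inside the threshold. Bbc3 (0.50), Bcl2a1b (0.43), Bcl2 (-0.15), Mcl1 (-0.07), Bak1 (0.11) and Bax (-0.02) were inside the threshold. Double-positive thymocyte markers were also higher in these cells, at 168 against 67.1 CPM, and their part in the result was not tested. Crossing the immature and agonist panels showed that Bcl2l11 was high with either and highest with both. Its level was 424 CPM in the 211 cells high for both, 189 CPM in 555 agonist-high cells only, 116 CPM in 489 immature-high cells only and 46.0 CPM in 3070 cells high for neither. The sum of Bcl2a1b and Bcl2a1d ran otherwise, at 520, 412, 81.3 and 95.6 CPM, so it was high in the agonist-high cells whether or not they were immature-high. Bcl2 was at 165, 195, 365 and 364 CPM over the same 4 groups.

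The remaining panels moved fewer members upward. In proliferating cells (Mki67, Top2a, Pclaf and Ube2c) 6 members were lower and 0 higher, where 24.8% of genes were past the threshold and 13.1% were lower. Bcl2l11 (log2 ratio -1.23), Bbc3 (6.55 against 14.1 CPM, -1.11), Bcl2l1 (-0.78), Mcl1 (-0.71), Bcl2 (-0.70) and Bcl2a1b (-0.66) made up the 6 (median over the members -0.70, over all genes -0.08), while Bax stood at -0.00 and Bak1 at 0.13, with Bcl2a1d inside the threshold at -0.48. Those cells had a median of 10469 UMIs, against 5530.5 in the rest. In effector-like cells (S100a4, S100a6, Cxcr3 and Cxcr6) 1 member was higher and 2 lower, where 21.9% of genes were past the threshold, 9.73% higher and 12.2% lower. Bcl2a1b was at 187 CPM in effector-like-high cells and 101 CPM in the rest (log2 ratio 0.90), Bcl2 at 200 and 344 CPM (-0.78) and Bcl2l11 at 38.6 and 94.8 CPM (-1.30). Bcl2a1d (0.58), Bak1 (0.46), Bax (0.29), Bbc3 (-0.16), Mcl1 (-0.39) and Bcl2l1 (-0.51) were inside the threshold. Pmaip1, the gene for Noxa, had 15 of its 34 UMIs in these 314 cells and 19 in the rest of the deep cells, or 6.16 and 0.678 CPM. Myeloid markers stood at 657 CPM in effector-like-high cells and 6.17 CPM in the rest, and NK or innate markers at 242 and 33.4 CPM. Without the cells that had at least 5 UMIs of other-cell markers, Bcl2a1b gave 0.89, Bcl2 -0.87, Bcl2l11 -1.31 and Bcl2a1d 0.67, and Pmaip1 had 10 UMIs in 258 effector-like-high cells, against 18 in the rest. Interferon-high cells had 1 member past the threshold, Bbc3 at 7.8 against 13 CPM (log2 ratio -0.74), where 10.4% of genes were past it and 7.13% were lower. The others were Bcl2l1 (-0.55), Bax (-0.23), Bak1 (0.18), Mcl1 (0.12), Bcl2 (0.10), Bcl2l11 (0.07), Bcl2a1d (0.01) and Bcl2a1b (-0.00). In the other panels Pmaip1 had between 3 UMIs (egress-high cells) and 12 UMIs (immediate early-high cells) in the high cells.

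The Il2ra only class was mixed with respect to the agonist panel, and its Bcl2l11 level was higher in its agonist-high cells. Of its deep cells 184 were agonist-high and 398 were not. Bcl2l11 stood at 370 CPM in its agonist-high cells and 47.7 CPM in its other cells, a log2 ratio of 2.96 (2.68 to 3.24), in a comparison where 35.6% of genes were past 1.5-fold. Bcl2a1d was at 279 against 40.6 CPM (2.78), Bcl2a1b at 533 against 104 CPM (2.36), Bcl2l1 at 110 against 26.6 CPM (2.04) and Bcl2 at 180 against 471 CPM (-1.39). Among cells that were not agonist-high, Il2ra only cells over cells with neither transcript gave a Bcl2l11 log2 ratio of -0.30 (-0.57 to -0.04), so the excess of Bcl2l11 in the class was absent there. Bcl2l1 (0.93), Bcl2a1b (0.84), Bcl2a1d (0.67) and Bcl2 (0.65) kept a higher level in Il2ra only cells in that comparison, where 14.1% of genes were past the threshold. Among agonist-high cells the excess of Bcl2l11 remained, at 370 CPM in Il2ra only cells and 240 CPM in cells with neither transcript. Foxp3 only cells had too few agonist-high cells (61) for a narrow interval, and Bcl2l11 was at 79.4 CPM in them and 54.4 CPM in the 418 others, a log2 ratio of 0.54 (-0.09 to 1.13) where 19.9% of genes were past the threshold. In cells with both transcripts Bcl2l11 was at 119 CPM in 64 agonist-high cells and 39.6 CPM in 352 others, a log2 ratio of 1.58 where 24.0% were. Cells with neither transcript had 240 CPM in 457 agonist-high cells and 58.7 CPM in 2391 others, a log2 ratio of 2.03 where 21.8% were.

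The ratio of summed pro-survival UMIs to summed pro-death UMIs describes the balance of the transcripts, with no meaning as an absolute level. It was 5.71 (5.26 to 6.22) in cells with both transcripts, 3.81 (3.50 to 4.15) in Foxp3 only cells, 3.30 (3.11 to 3.50) in Il2ra only cells and 2.63 (2.55 to 2.71) in cells with neither. The 4 intervals did not overlap, though the order of Foxp3 only and Il2ra only cells changed without Mcl1. The log2 difference of Il2ra only from Foxp3 only cells was -0.21 (-0.35 to -0.06) with Mcl1 and 0.16 without it. The ratio was higher at each step of Il2ra UMIs, at 2.76 with 0, 3.41 with 1, 4.37 with 2 and 4.71 with 3 or more, and of Foxp3 UMIs, at 2.77 with 0, 4.19 with 1 and 5.47 with 2 or more. Here too the steps of each gene mixed cells with and without a UMI of the other. Egress-high cells had a ratio of 5.18, against 2.87 in the rest. Agonist-high cells had 2.15 against 3.46, and immature-high cells 2.17 against 3.32. Within the Il2ra only class the ratio was 2.26 in agonist-high cells and 4.46 in the others. After thinning, a pro-death member but no pro-survival member was seen in 0.962% of cells with both transcripts (4 of 416), 5.01% of Foxp3 only cells, 3.44% of Il2ra only cells and 8.46% of cells with neither (241 cells). Such a cell lacks a captured UMI, and not necessarily the transcript.

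Whether single cells held both arms at once was read after thinning every cell to 3000 UMIs, which left 4325 cells. The observed number of cells with both genes was divided by the number that the product of the 2 shares gives. Bim transcripts shared cells with the inducible survival genes more often than the product of shares gives, and with Bcl2 slightly less often. Bcl2l11 and Bcl2a1d were together in 127 cells against 68.0, a ratio of 1.87 (1.56 to 2.22), and 18.1% of Bcl2l11-positive cells had Bcl2a1d, against 8.08% of the others. Bcl2l11 and Bcl2l1 shared 72 cells against 42.6 (1.69, 1.33 to 2.13), and Bcl2l11 and Bcl2a1b shared 195 against 136 (1.43, 1.24 to 1.64). With Bcl2 the count was 325 against 362, a ratio of 0.898 (0.806 to 0.996), and with Mcl1 it was 428 against 439 (0.975). For Bax, Bak1 and Bbc3 the intervals with each of the 5 survival genes held 1. The Bak1 ratios lay between 0.967 and 1.14, the Bbc3 ratios between 0.723 and 1.15, and Bax with Bcl2a1d gave 1.15 (0.978 to 1.35). Among survival genes, Bcl2l1 and Bcl2a1d shared 71 cells against 25.5 (2.78, 2.17 to 3.50), while Bcl2 and Bcl2a1d shared 159 against 217 (0.732, 0.624 to 0.852). Pmaip1 was seen in 15 thinned cells, of which 8 had Bcl2a1b (2.92 by the product of shares) and 0 had Bcl2l11.

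**Figure D3:**
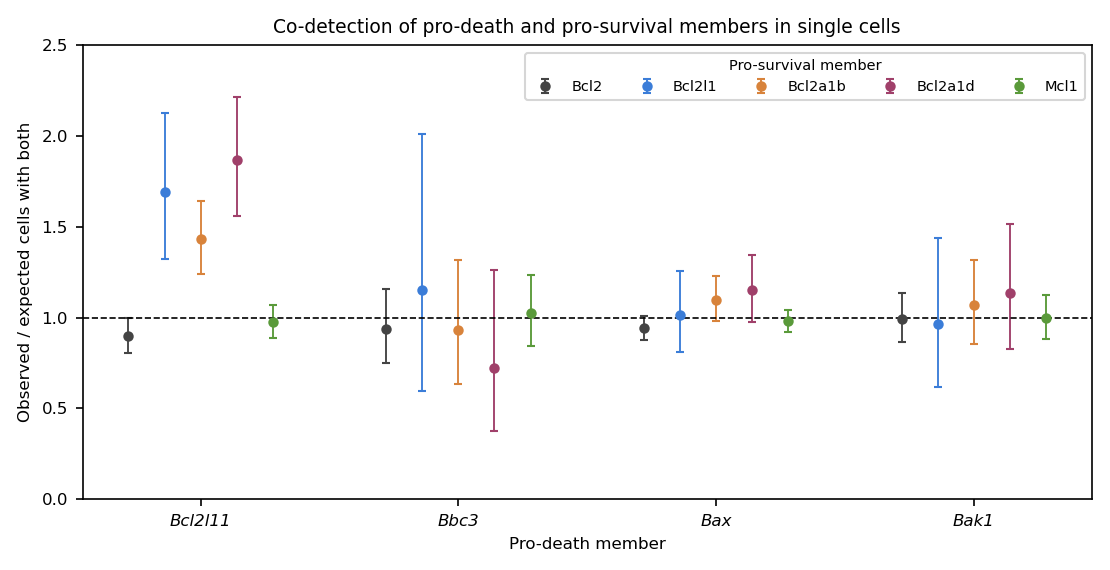
Observed over expected number of cells with a UMI of both genes after thinning to 3000 UMIs, for 4 pro-death genes (horizontal axis) with 5 pro-survival genes (colours), with exact 95% intervals for counting error and a dashed line at 1, where the shares are independent. Bcl2l11 stands above 1 with Bcl2l1 (1.69), Bcl2a1b (1.43) and Bcl2a1d (1.87) and just below it with Bcl2 (0.898). Pmaip1 is left out.

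The pairing of Bcl2l11 with Bcl2a1d was seen in both mice, at 1.77 in Lta-/- cells (55 cells against 31.1) and 1.91 in Foxp3eGFP cells (65 against 34.0). It was 2.00 (1.49 to 2.61) in Il2ra only cells and 1.73 (1.36 to 2.18) in cells with neither transcript, but counts were too few in Foxp3 only cells (2 cells) and in cells with both (5 cells). The ratios were nearer to 1 within clusters. Summed within the 9 clusters, the ratio with Bcl2a1d was 1.40 (1.17 to 1.67), with Bcl2l1 1.36 (1.06 to 1.71) and with Bcl2a1b 1.24 (1.07 to 1.42). For Bcl2 it was 0.973 within clusters, so the shortfall seen over all cells was not measurable there. The pairing was 1.84 without the cells that carried both hashtags. That left out only droplets that mixed the 2 mice, since doublets within a mouse cannot be found by hashtag. The part of such doublets in the pairing was not tested.

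Cells with many Bim transcripts were few, and some states were more common among them. The 136 cells with 3 or more Bcl2l11 UMIs after thinning were 3.14% of the cells and held 36.4% of the Bcl2l11 UMIs. Of these cells 66.9% (58.3 to 74.7) were agonist-high, against 14.3% of the 3625 cells with 0 Bcl2l11 UMIs, 25.8% of those with 1 and 35.1% of those with 2. Immature-high cells made up 13.4%, 22.8%, 36.6% and 49.3% over 0, 1, 2 and 3 or more UMIs, and egress-high cells 16.4%, 11.4%, 7.46% and 3.68%. Foxp3 was nearly missing from the last group, with a UMI in 6 of 136 cells (4.41%), against 21.6% of cells with 0 Bcl2l11 UMIs. Il2ra was not, with 30.1% against 23.0%. Median depth was similar over the steps, at 5724, 5798, 5885 and 5682 UMIs. A UMI of Bcl2a1b, Bcl2a1d or Bcl2l1 was found in 56.6% (47.9 to 65.1) of the cells with 3 or more, against 25.0% of cells with 0. Bcl2a1d stood at 40.2, 58.1, 116 and 194.5 CPM over the 4 steps and Bcl2l1 at 20.2, 30.3, 42.5 and 76.6 CPM. Bcl2 stood at 345, 265, 280 and 260 CPM, Mcl1 at 322, 327, 324 and 290.5 CPM and Bax at 134, 149, 137 and 132.5 CPM, so their levels were flat or lower where Bcl2l11 was seen. Both mice contributed, with 57 Lta-/- and 75 Foxp3eGFP cells.

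**Figure D4:**
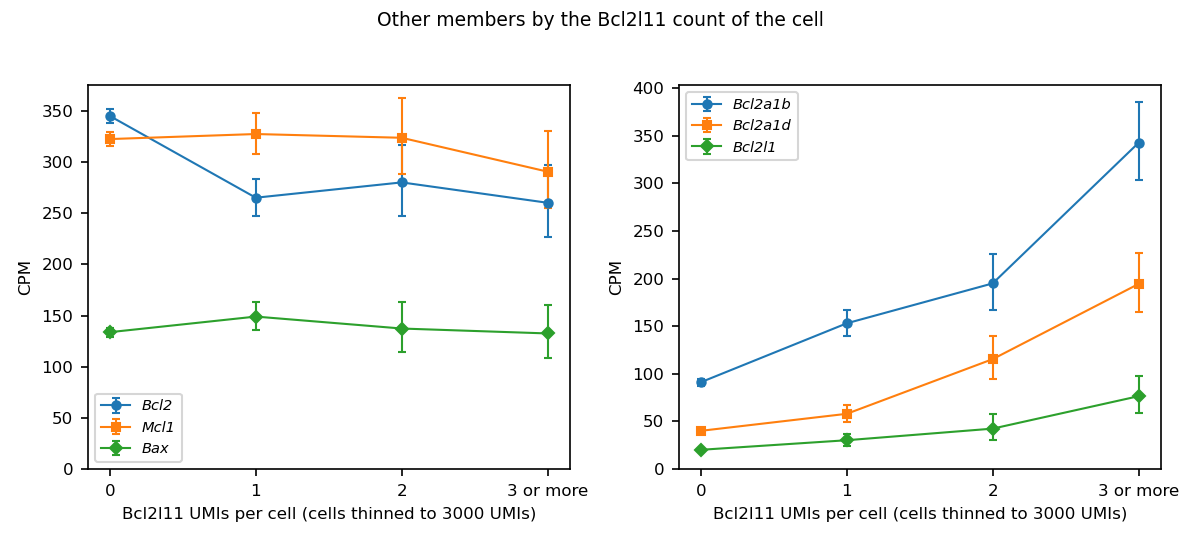
Level in CPM of 6 members (2 panels, linear axes from 0) in cells grouped by thinned Bcl2l11 UMIs (0, 1, 2, 3 or more; 3625, 430, 134 and 136 cells), with exact Poisson 95% intervals for counting error. Bcl2a1b reaches 343 CPM in the last group, against 91.2 CPM in the first, while Mcl1 stays between 290.5 and 327 CPM.

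Clusters made without the 10 genes are given as a description. Cluster 0 (953 cells), led by Xcl1, Tnfrsf9 and Trib1, had the highest Bcl2l11 (212 CPM), Bcl2a1d (114 CPM), Bcl2a1b (199 CPM) and Bcl2l1 (44.1 CPM) of the 9 clusters, and 161 CPM of Bcl2. Cluster 5 (870 cells), led by Foxp3, Egr3, Il2ra and Gpr83, with the immediate early gene Nr4a3 among its leading genes too, had the highest Bcl2 (582 CPM) and Mcl1 (497 CPM) and 58.2 CPM of Bcl2l11. Cluster 2 (443 cells), led by Ccr9 and Chl1, combined 547 CPM of Bcl2 with 119 CPM of Bcl2l11 and had the highest Bbc3 (25.1 CPM). The Bbc3 level of cluster 2 differed by mouse, at 33.3 CPM in Lta-/- cells (52 UMIs) and 12.1 CPM in Foxp3eGFP cells (12 UMIs). The survival to death ratio ran between 1.47 in cluster 8, which mixed Mzb1 and Lyz2, and 5.71 in cluster 5. By Pearson correlation of log2(CPM + 10) over the 9 clusters, the 3 genes most like Bcl2l11 were Rtn4 (0.95), Rev1 (0.94) and Ints12 (0.93), and those most like Bcl2 were Fnip1 (0.94), Ube2h (0.93) and Zfp654 (0.93). Bcl2a1b was closest to Nfkb2 (0.94), Bcl2a1d (0.93) and Rgs16 (0.92), Bcl2l1 to Orai1 (0.93), Ganab (0.92) and Spata5 (0.91), and Mcl1 to Fam8a1 (0.98), Abi1 (0.97) and Traf3ip3 (0.97). Bcl2a1d was closest to Edf1 (0.94), Bbc3 to Mef2d (0.95), Bax to Slc3a2 (0.95) and Bak1 to Prps1 (0.94). Each gene named was picked as among the highest of 6184 genes, over only 9 clusters. Whether values this high exceed those that so many unrelated genes would give was not tested. All clusters share 1 capture and these values describe it.

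Further genes of the apoptosis pathway were read from 4 lists. They were 15 further BCL2 family genes (8 measured), 13 genes of the apoptosome, caspases and their inhibitors, 9 of the death receptors (8 measured) and 10 of p53 (6 measured). The p53 list held Trp53, the gene for p53 itself, beside targets of p53. In Il2ra only cells over cells with neither transcript, 2 further BCL2 family genes were lower, 1 apoptosome gene was higher, 1 death receptor gene was higher and 1 lower, and 1 p53 target was higher, where 14.5% of all measured genes were past the threshold. The medians of the 4 lists were -0.16, 0.07, 0.03 and 0.06, beside -0.03 over all measured genes. The named ones were Birc3, a caspase inhibitor induced by NF-kB, at 52.1 against 31.3 CPM (log2 ratio 0.73), Aen, a p53-induced nuclease, at 34.0 against 21.4 CPM (0.67), and Tnfrsf1a, a TNF receptor, at 13.8 against 21.1 CPM (-0.61). Birc3 was highest in cells with both transcripts, at 63.2 against 31.3 CPM in cells with neither (1.01). Casp8, the initiator caspase of death receptors, stood at 195 CPM in cells with both and 107 CPM in cells with neither (0.86). Agonist-high cells had more Cycs, the gene for cytochrome c, at 309 CPM against 168 CPM in the rest (0.88), more Fas at 113 against 63.1 CPM (0.84), more Bid, which links death receptors to Bax and Bak, at a log2 ratio of 1.01, and more Aen at 39.7 against 18.7 CPM (1.08). Casp8 was lower in them, at 83.9 against 129 CPM (-0.62).

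Lta-/- cells over Foxp3eGFP cells had 0 of 9 measured members past 1.5-fold, where 5.24% of 10709 genes were past it. The largest ratio among the members was that of Bbc3, with 207 UMIs and 14.7 CPM in Lta-/- cells, against 149 UMIs and 9.93 CPM in Foxp3eGFP cells, a log2 ratio of 0.57 (0.26 to 0.88). It passed the threshold, at 0.59, without the mixed Mzb1 and Lyz2 cluster. Bcl2l1 was at 24.3 CPM in Lta-/- cells and 22.4 CPM in Foxp3eGFP cells, Bcl2a1b at 106 and 108, Bcl2a1d at 43.8 and 52.4 and Mcl1 at 313 and 332 CPM. Bcl2l11 stood at 86.3 CPM in Lta-/- cells and 91.7 CPM in Foxp3eGFP cells (log2 ratio -0.09, -0.20 to 0.02), and was at -0.39 when only cells with a UMI of Foxp3 or Il2ra were used. Bax (137 and 135 CPM) and Bak1 (32.4 and 33.7 CPM) were nearly equal, and Pmaip1 had 18 and 16 UMIs. The median over the members was -0.06, over all genes 0.00. The survival to death ratio was 2.95 in Lta-/- cells and 3.19 in Foxp3eGFP cells. The summed level of B or plasma cell markers differed between the mice, at 11.8 CPM in Lta-/- cells and 396 CPM in Foxp3eGFP cells. The difference lay in Iglc2 (5 and 3594 UMIs), Jchain (27 and 1660) and Mzb1 (26 and 586). Iglc2 was seen in 13 cells in all and Mzb1 in 15. Cd79a (29 and 30 UMIs), Cd79b (69 and 67) and Ms4a1 (10 and 6) were similar. Without the cells with at least 5 UMIs of other-cell markers, the log2 ratio was 0.57 for Bbc3 and -0.19 for Bcl2.

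**Figure D5:**
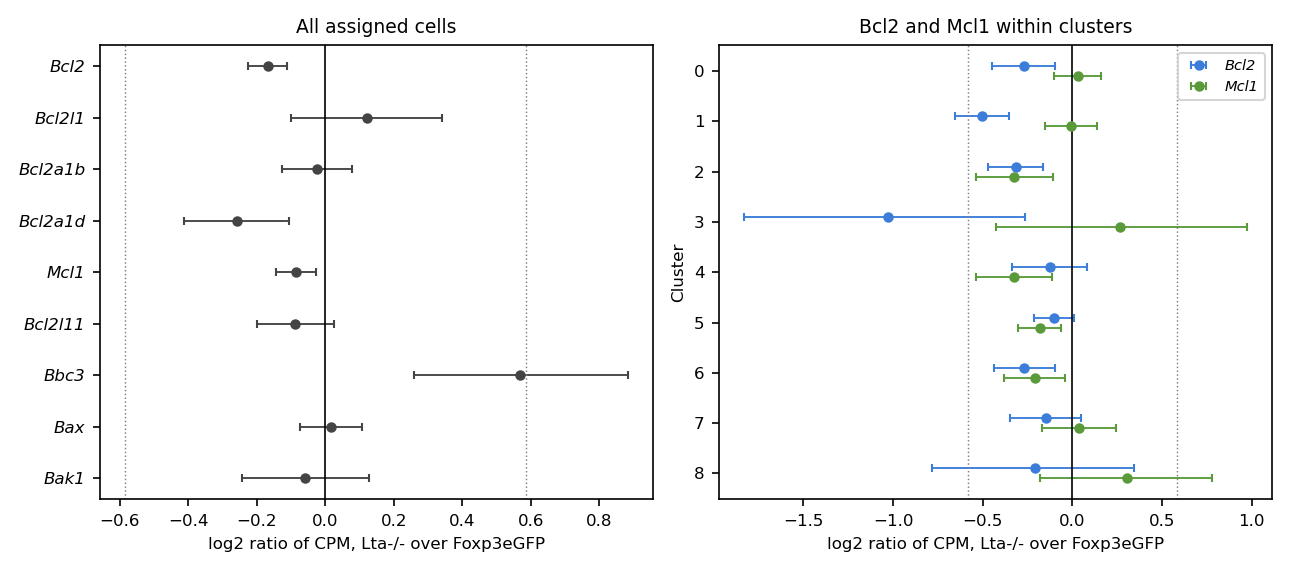
Left, log2 ratio of CPM in Lta-/- over Foxp3eGFP cells for 9 members over all assigned cells; right, the same ratio for Bcl2 and Mcl1 in clusters 0 to 8. Bars are 95% intervals for counting error and dotted lines mark 1.5-fold. All members sit inside the dotted lines on the left, and Bcl2 is below 0 in 9 of 9 clusters on the right.

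Bcl2 was slightly lower in Lta-/- cells in most places it could be read. Over all assigned cells it was at 312 CPM in Lta-/- cells and 351 CPM in Foxp3eGFP cells, a log2 ratio of -0.17 (-0.23 to -0.11). It was lower in 9 of 9 clusters, with ratios from -1.03 to -0.10, a pattern that 1.4% of 644 genes measured in every cluster showed. The intervals held 0 in clusters 4, 5, 7 and 8. The ratio of -1.03 came from cluster 3, with 23 UMIs in Lta-/- cells and 42 in Foxp3eGFP cells. In cluster 1, led by Rflnb and Igfbp4, Bcl2 was at 270 CPM in Lta-/- cells and 383 CPM in Foxp3eGFP cells (-0.51). The direction did not hold everywhere, since the ratio was 0.10 (-0.04 to 0.25) in Il2ra only cells and 0.32 (0.04 to 0.60) in effector-like-high cells. Mcl1 had no common direction, higher in 4 clusters and lower in 5. Bbc3 was measured in 4 clusters and higher in 3 of them, with 52 UMIs and 33.3 CPM in Lta-/- cells of cluster 2, against 12 UMIs and 12.1 CPM in its Foxp3eGFP cells (log2 ratio 1.46, 0.53 to 2.498). Within cells that had neither transcript its ratio was 0.62 (0.24 to 1.01), where 5.78% of genes were past the threshold, and in resting-high cells it was 1.07, where 8.32% were. Bcl2l11 crossed the threshold within some states and in opposite directions. In egress-high cells it had 43 UMIs in Lta-/- cells and 93 in Foxp3eGFP cells (log2 ratio -0.94, where 5.84% of genes were past the threshold), in resting-high cells 59 and 94 UMIs (-0.73), and in effector-like-high cells 71 and 17 UMIs (2.83-fold, where 9.92% were). The mice also differed in those states, as effector-like-high cells were 9.08% of Lta-/- cells and 5.33% of Foxp3eGFP cells, and interferon-high cells 10.1% and 20.03%. Of 13 such comparisons within a class or panel, 5 had a member past the threshold, the fifth being Bcl2l1 in cells with both transcripts at a log2 ratio of 0.61, where 7.52% of genes were. In the other 8 no measured member was, where 6.73% (Foxp3 only), 7.99% (Il2ra only), 5.59% (Treg effector), 5.82% (agonist), 6.72% (immediate early), 6.13% (immature), 5.6% (proliferation) and 7.8% (interferon) of genes were. With 1 mouse per genotype, a difference of genotype and a difference between individual mice cannot be told apart.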

How the data were processed

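Thymic cells of 2 mice were captured in 1 well (10x Genomics 3' v3.1, per the labels' protocols). The authors deposited a matrix of raw UMI counts, genes and hashtags by barcode. The submitters' processing notes name Cell Ranger 6.0.1 and mm10 (GRCm38), and their settings are not given in the sources. The members and lists were chosen with earlier results of these data known.

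Kept barcodes had 500 or more genes and no more than 10% of UMIs from mitochondrial genes. Mice were told apart by hashtag, asking for 10 or more counts and a share of 80% or more for 1 of the 2 antibodies. The deposited feature names number the antibodies otherwise than the labels do, and the feature names were used. Doublets within a mouse cannot be found by hashtag and no caller was run. Raw counts were summed per class; intervals are exact at 95% (Poisson for levels, conditional binomial for ratios, Clopper-Pearson for shares; for the survival to death ratio of ratios, Woolf). Thinning drew 3000 UMIs per cell and left out 313 shallower cells (162 Lta-/-, 147 Foxp3eGFP). Clusters came from 2000 variable genes without the members, 30 components, 15 neighbours and Leiden resolution 0.6. All measured members are named in the comparisons of classes, of panels and of genotypes over all assigned cells. Comparisons within a class, panel or cluster name only some members, and a member not named there is not thereby unchanged. List genes are named past 1.5-fold with at least 100 UMIs, at most 3 per direction and list. For likeness, genes with at least 500 UMIs were used. Some genes of the lists and panels are not reported here by name. The ratio interval was checked only on simulated counts with independent Poisson error, which is what the interval assumes. That check cannot show how the interval does where UMIs are concentrated in few cells. Software was Python 3.11.15, numpy 2.4.6, scipy 1.17.1, pandas 2.3.3, scanpy 1.11.5, igraph 0.11.9 and matplotlib 3.10.9. Unused columns of sample values numbered 0.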

Additional observations from a re-analysis of the deposited data

How the results depend on the processing

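Alternatives covered cell filters, thinning, class and hashtag thresholds, each mouse alone, cells left out, and panel and cluster settings. Of 495 single-gene values under alternatives, 443 moved by no more than their interval, 52 moved further and 0 changed direction past the threshold. The count for Foxp3 only over neither was 6 with at least 2 UMIs for a class (3 with the main settings). Other alternatives also moved single members of that comparison across the threshold, as given above for Bcl2l1, Bcl2l11 and Bbc3. The count for Lta-/- over Foxp3eGFP was 1 without the mixed Mzb1 and Lyz2 cluster, an alternative added after seeing the data (0 with the main settings). Without Mcl1, the log2 survival to death ratio over cells with neither was 0.55 in Il2ra only cells (0.33 with it) and 0.39 in Foxp3 only cells (0.54 with it). By members detected per thinned cell it was 0.15 in Foxp3 only cells and 0.63 in cells with both (1.12 by UMIs). Il2ra only over Foxp3 only cells reversed, to 0.16 without Mcl1 and 0.16 by members detected, against -0.21. The interferon count was 0 with the panel reached by at most 10% of the cells, and 0 with at least 1 panel UMI (1 with the main settings). Leiden resolution 1.0 gave 15 clusters in place of 9. The cause of these changes was not tested. No paired analysis was possible because each genotype is 1 mouse in the same capture. Counts of Pmaip1 (34 UMIs) and Bbc3 (387 UMIs) were low, which limits the precision of their values.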
